A study of Homo sapiens with 6 samples.

Results

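The 31 genes described here, out of 19974 protein-coding genes, encode the semaphorins and their receptors. They are 20 semaphorins (the ligands), 9 plexins and 2 neuropilins (the receptors). The list was chosen with earlier results of these data known, so shares set beside all genes are descriptions. The assay was chromatin immunoprecipitation with sequencing (ChIP-seq) of GSX2, a homeodomain protein that directs the identity of precursor cells in the lateral ganglionic eminence, where striatal neurons are born. All libraries came from H9, an established human embryonic stem cell line, differentiated toward progenitors of that kind and carrying a TRE3G 2xFLAG-GSX2 WT transgene, whose TRE3G promoter responds to doxycycline. Doxycycline at 100 ng/mL was added at day 10 for 12 hours, and chromatin was taken at day 10.5 and precipitated with the M2 antibody against FLAG. There are 3 replicate peak lists and no second condition. The 3 input libraries have no values here, no library from cells without the transgene was analysed, and the tagged protein came from a transgene.

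Semaphorins are secreted or membrane-bound guidance proteins that steer growing axons and migrating neurons. Plexins are their main signalling receptors, acting through small GTPases, and neuropilins are co-receptors that most secreted class 3 semaphorins need to engage plexins of the A group. In the developing ventral forebrain, class 3 semaphorins made in the striatum repel neuropilin-bearing interneurons that migrate past it toward the cortex.

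A peak was assigned to the protein-coding gene whose span lay nearest to its strongest summit, and peaks of the replicates that overlapped by at least 1 bp were merged into regions. A region with a peak of every replicate is called shared. Of the 31 genes, 18 were nearest to a region of any replicate (32.5% of all protein-coding genes), and 12 to at least 1 shared region (12.3% of all). Those 12 were the ligand genes SEMA3A, SEMA3C, SEMA3D, SEMA3E, SEMA4B, SEMA5A, SEMA5B, SEMA6A and SEMA6D and the receptor genes PLXNA2, NRP1 and NRP2. Together they held 23 shared regions, among 74 regions of any kind. The other 51 comprised 9 regions of 2 replicates and 42 of 1 replicate, 20 of these from replicate 3. Read counts are absent from the lists, so sequencing depth is unknown, and a missing peak can lie just under the caller's threshold. Shared regions were 31.1% of the family's regions (95% Wilson interval 21.7 to 42.3%, counting error only), beside 22.5% over the whole series.

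PLXNA4 had regions of at most 2 replicates, and SEMA3F, SEMA4A, SEMA4F, SEMA6B and PLXNC1 had regions of 1 replicate only. The remaining 13 genes had no region in any list. These were SEMA3B, SEMA3G, SEMA4C, SEMA4D, SEMA4G, SEMA6C, SEMA7A, PLXNA1, PLXNA3, PLXNB1, PLXNB2, PLXNB3 and PLXND1. All the plexin B genes are thus without a peak, as are SEMA7A, the membrane-anchored ligand of PLXNC1, and PLXND1, the receptor of SEMA3E. Each of these is the nearest protein-coding gene over only 26 to 74 kb. Of all protein-coding genes, 32.5% had a region of any replicate, and 3.95% of those with under 100 kb had a shared one. The absence of peaks at these genes is therefore uninformative.

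**Figure D1:**
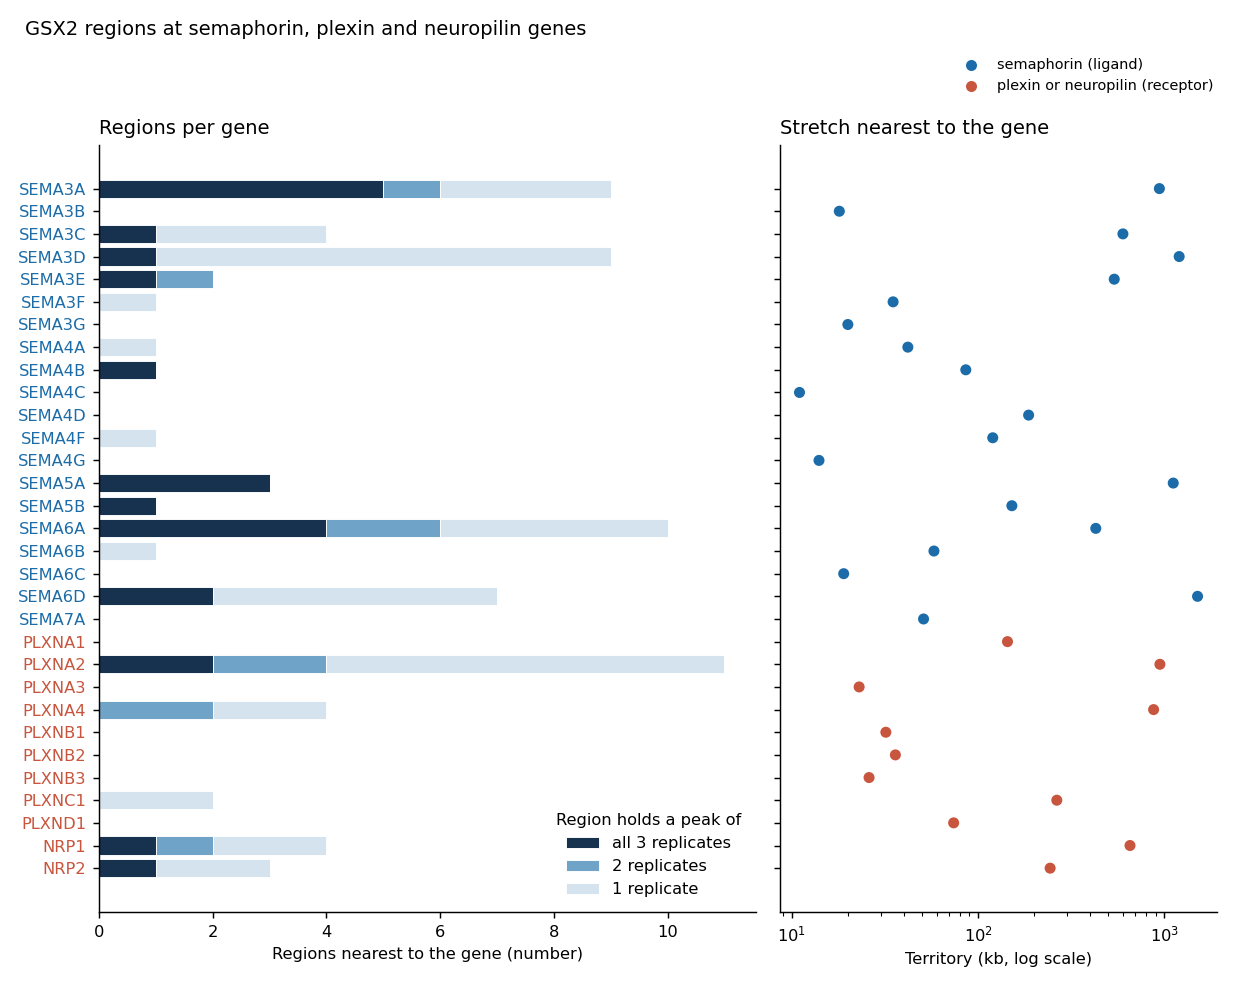
Left, number of GSX2 regions nearest to each of the 31 genes, split by the number of replicates with a peak (blue names, ligands; red names, receptors). Right, the territory of each gene in kb on a log scale, the stretch over which it is the nearest protein-coding gene. The genes with the most regions, PLXNA2 with 11, SEMA6A with 10 and SEMA3A and SEMA3D with 9 each, have territories of 429 to 1203 kb, and the 13 genes without a region have territories of 11 to 187 kb.

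The family divides into long, isolated genes and short ones in gene-dense surroundings, and a long territory collects more regions. The 12 genes with a shared region had a median territory of 627.5 kb, against 36 kb for the other 19. Of the 15 members with a territory under 100 kb, 1 had a shared region (SEMA4B), where 3.95% of all protein-coding genes in that class did. Of the 7 members of 100 to 500 kb, 3 did (SEMA5B, SEMA6A and NRP2), where 22.6% of all such genes did. Of the 9 members of 500 kb and over, 8 did, where 56.5% of all such genes did, and PLXNA4 (877 kb) was the exception. These shares describe the lists and were not tested.

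SEMA3A, SEMA6A and SEMA5A had 5, 4 and 3 shared regions, where 1.17% of all protein-coding genes had at least 3 and 0.24% at least 5. For comparison, the 1864 protein-coding genes with territories of 300 to 1000 kb had a mean of 0.709 shared regions, and the 392 genes of 1000 to 3000 kb had a mean of 1.54. SEMA3A (942 kb) and SEMA6A (429 kb) lie in the first of these classes and SEMA5A (1118 kb) in the second. The first class has a median territory of 475 kb, so SEMA3A lies near its upper end and its mean understates what such a territory collects.

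**Figure D2:**
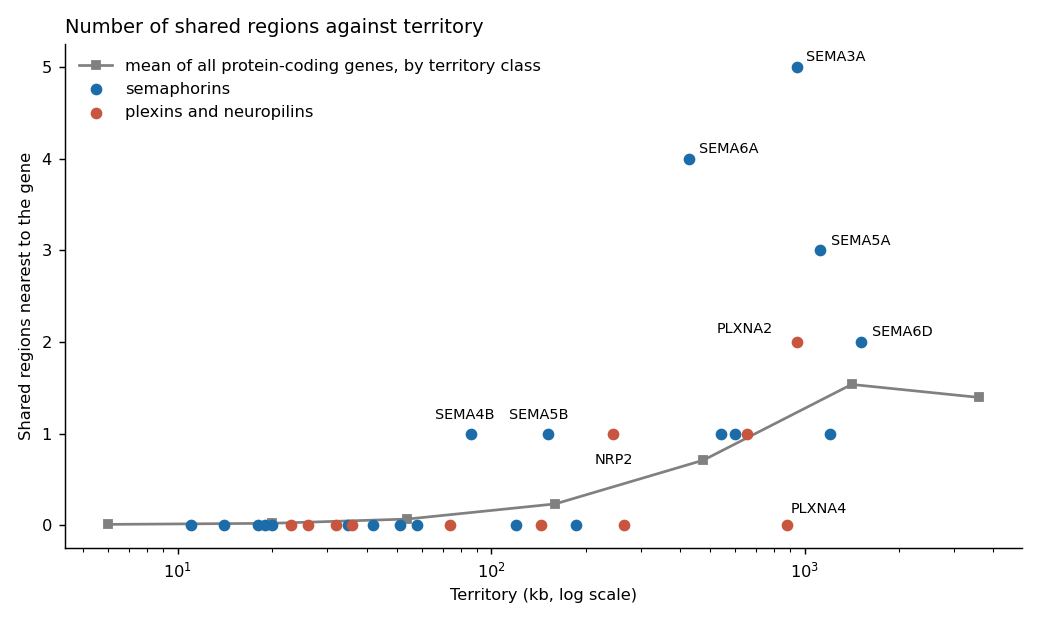
Number of shared regions nearest to each gene against its territory in kb on a log scale. Points are the 31 genes (blue, semaphorins; red, plexins and neuropilins), and grey squares joined by a line are the means of all protein-coding genes in 7 classes of territory. SEMA3A, SEMA6A and SEMA5A, with 5, 4 and 3 regions, lie farthest above the line. All members with 0 regions, PLXNA4 among them, lie below it, as does SEMA3D, with 1 region and a territory of 1203 kb.

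No start window of a member held a peak. The RefSeq table of start windows (build GRCh38.p14, 250 bases before to 50 bases after a start) has 48 windows for 27 of the 31 genes, and 0 of the 48 were overlapped by a peak of any replicate, where 3.82% of the windows of all protein-coding genes were. Shared regions overlapped 0.75% of all windows. Some of the 48 windows overlap each other, and beside shares this low 0 of 48 is uninformative. NRP1, SEMA3A, SEMA6A and SEMA6B have no window in it. The core letters of homeodomain sites, TAAT on either strand with overlapping matches counted separately, were in 21 of the 48 member windows, and in 42.7% of all 22132. The palindrome TAATTA was in 0 of the 48 and in 3.4% of all, so this 0 is uninformative too. The 250 bases before a start are printed for 3 genes that show the range of these windows, 5′ to 3′ along the gene, with each TAAT or ATTA in capitals: SEMA5A, which has the strongest region of the family, SEMA4B, whose shared region is the closest to a start, and SEMA3C, whose outer start has 5 of the core matches. They lie at chr5:9546076-9546325 (minus strand), chr15:90184670-90184919 (plus strand) and chr7:80922390-80922639 (minus strand).
SEMA5A: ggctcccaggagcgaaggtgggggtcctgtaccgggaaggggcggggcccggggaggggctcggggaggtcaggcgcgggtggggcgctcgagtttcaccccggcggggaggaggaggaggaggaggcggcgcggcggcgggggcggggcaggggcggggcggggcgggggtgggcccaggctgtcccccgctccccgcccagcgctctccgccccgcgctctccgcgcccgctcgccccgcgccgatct
SEMA4B: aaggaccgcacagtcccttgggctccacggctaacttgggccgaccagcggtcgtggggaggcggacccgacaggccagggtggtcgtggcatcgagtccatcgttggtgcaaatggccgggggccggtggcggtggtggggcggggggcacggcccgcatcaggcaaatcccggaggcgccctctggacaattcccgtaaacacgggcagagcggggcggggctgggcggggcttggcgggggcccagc
SEMA3C: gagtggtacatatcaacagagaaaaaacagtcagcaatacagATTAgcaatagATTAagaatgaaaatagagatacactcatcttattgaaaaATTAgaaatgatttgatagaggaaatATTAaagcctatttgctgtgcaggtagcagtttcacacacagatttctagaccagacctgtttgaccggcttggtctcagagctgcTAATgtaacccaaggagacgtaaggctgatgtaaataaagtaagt
The SEMA5A and SEMA4B stretches hold 0 core matches and are 82% and 72% G and C, while that of SEMA3C holds 5 and is 36.4% G and C. The nearest region to the printed SEMA5A window was 11.5 kb away and shared, that to SEMA4B 2.41 kb away and shared, and that to SEMA3C 1.85 kb away and from 1 replicate. A match is a description of letters and not evidence of binding. Sequences under the peaks were not used here.

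Among the ligands, the class 5 semaphorins SEMA5A and SEMA5B, membrane proteins with thrombospondin repeats, had 4 regions, and all 4 were shared. SEMA5A held the strongest region of the family inside its span, on chromosome 5 from 9196568 to 9197210, 349.3 kb into the gene from its start. Its fold enrichment, the ratio over background that the authors' peak caller gave (as are all such values here), was 27.1, 28.3 and 32.8 in replicates 1, 2 and 3 (29.4 ± 3.0, SD, n = 3). Every replicate placed it above any other member region, and by mean it ranked 26 of the 3537 shared regions.

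A second SEMA5A region lay 513.4 kb beyond the far end of the gene, between it and MTRR (chromosome 5, 8521217 to 8521817). It reached 20.4, 13.7 and 14.0-fold (16.0 ± 3.8, SD, n = 3), with replicate 1 above the others. The third, 11.7 kb inside the gene from its start (9534076 to 9534538), was weak at 5.98, 5.15 and 8.81-fold. SEMA5B had 1 region inside its span (chromosome 3, 122998708 to 122999018), at 13.2, 10.0 and 12.8-fold (12.0 ± 1.7, SD, n = 3). It lay 5.63 kb upstream of an internal start of that gene.

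Class 4 semaphorins are membrane ligands of plexins, chiefly those of the B group, and 1 of the 6 genes had a shared region. SEMA4B was bound inside its span, 2.62 kb downstream of its first start (chromosome 15, 90187378 to 90187752). Fold enrichment there was 14.6, 15.0 and 21.0 (16.9 ± 3.6, SD, n = 3), the second highest mean in the family, with replicate 3 the highest. It was the only shared region of a member with a territory under 100 kb. SEMA4A and SEMA4F each had a region of 1 replicate, at 4.54-fold in replicate 3 and 6.79-fold in replicate 2.

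Class 6 semaphorins are transmembrane ligands that bind plexins of the A group directly, and 2 of the 4 genes had shared regions. SEMA6A had 4. The highest lay 27.7 kb outside the span (chromosome 5, 116602366 to 116602642) at 12.3, 16.7 and 10.2-fold (13.1 ± 3.3, SD, n = 3), and one inside (116498535 to 116499127) reached 13.4, 13.1 and 11.2-fold (12.6 ± 1.2). The other SEMA6A regions were 8.68 ± 1.28-fold inside the span (116553250 to 116553703) and 7.37 ± 1.71-fold at 185.3 kb from it (116759926 to 116760337; SD, n = 3 for both). The first pair overlapped in their replicate values, so their order is not resolved.

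SEMA6D had 2 shared regions on chromosome 15. One was inside the span (47517962 to 47518312) at 9.69, 14.1 and 15.7-fold (13.1 ± 3.1, SD, n = 3), with replicate 1 low. The other lay 263.9 kb before the gene (46920034 to 46920374) at 13.0, 13.0 and 12.0-fold (12.7 ± 0.6, SD, n = 3), the smallest relative spread among the 23 regions. SEMA6B had a region of replicate 3 only, and SEMA6C had none.

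Class 3 semaphorins are the secreted ones, and 4 of the 7 genes had shared regions: SEMA3A, SEMA3C, SEMA3D and SEMA3E. SEMA3A, a repellent that signals through NRP1, had 5, the most of any member, of which 4 were inside the gene. The strongest (chromosome 7, 83976296 to 83976689) reached 15.7, 13.4 and 10.1-fold (13.1 ± 2.9, SD, n = 3). Next came a region 174.2 kb outside the span (84666738 to 84667077) at 13.0, 12.9 and 9.31-fold (11.7 ± 2.1). In both, replicate 3 gave the lowest value. The remaining 3 SEMA3A regions, all inside, had means of 8.60 ± 2.01, 7.94 ± 3.05 and 6.08 ± 0.33-fold (SD, n = 3), under the series' median of 9.49.

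SEMA3C, which acts through both neuropilins, was bound inside its span (80907499 to 80907890) at 11.4, 12.9 and 8.94-fold (11.1 ± 2.0, SD, n = 3), 11.4 kb downstream of the nearer of its starts. SEMA3E, which binds PLXND1 without a neuropilin, was bound inside (83457354 to 83457781) at 9.93, 8.53 and 6.38-fold (8.28 ± 1.79). A region of replicates 1 and 2 lay close to it (83452548 to 83452904). SEMA3D was bound inside (85033466 to 85033764) at 7.96, 10.7 and 5.06-fold (7.90 ± 2.81). That gene had 9 regions, of which the other 8 came from 1 replicate each.

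SEMA3C, SEMA3E, SEMA3A and SEMA3D lie together on chromosome 7, in 4.51 Mb that hold 7 protein-coding genes (80742538 to 85250243). This block contained 11 shared regions, 8 of them nearest to the semaphorins, 2 to CACNA2D1, a calcium channel subunit gene, and 1 to PCLO, a presynaptic scaffold gene. HGF, the remaining gene of the block, had none. Over all genes there were 1.17 shared regions per Mb. The block was bounded by semaphorin genes, and those in it have territories of 539 to 1203 kb, which collect more regions. The share nearest to them was not tested. SEMA3B, SEMA3F and SEMA3G, on chromosome 3 with territories of 18 to 35 kb, had no shared region.

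**Figure D3:**
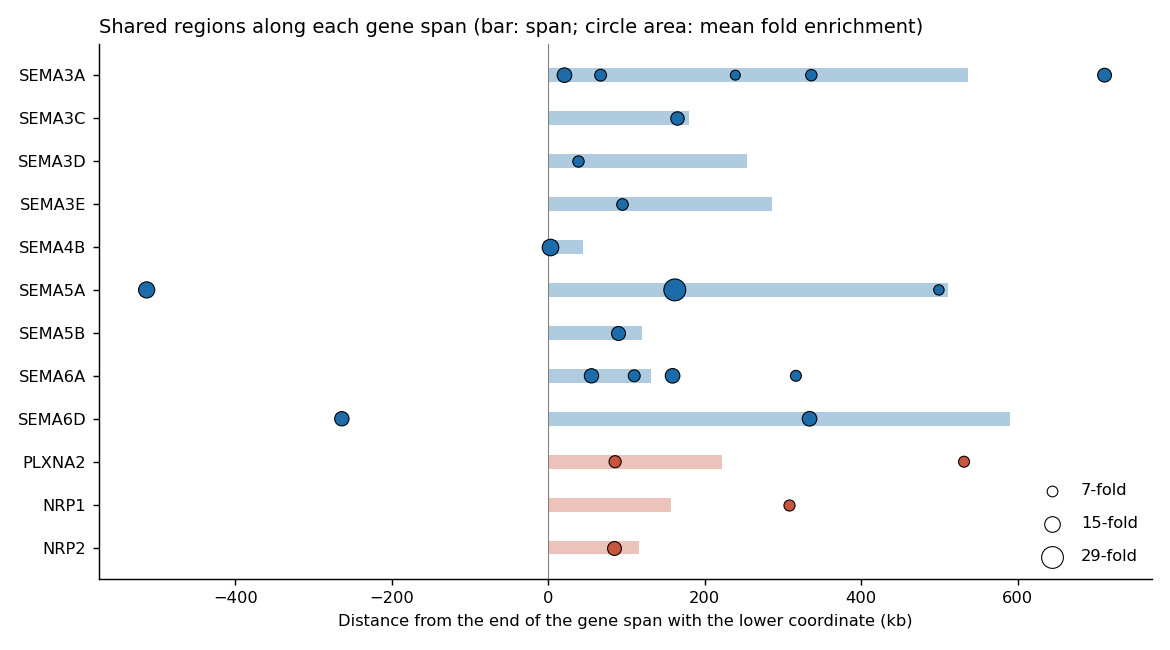
Position of the 23 shared regions on the 12 genes that have one, in kb from the end of the gene span with the lower coordinate. Bars are gene spans (blue, ligands; red, receptors), and circle area is the mean fold enrichment over 3 replicates. Of the 23 circles, 16 lie on a bar, and the largest lies within SEMA5A.

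Among the receptors, 3 of 11 genes had a shared region. NRP2, a co-receptor that prefers SEMA3F, had the strongest by mean, inside its span (chromosome 2, 205766807 to 205767193) at 10.5, 7.63 and 17.3-fold (11.8 ± 5.0, SD, n = 3). In replicate 2 it was below both regions of PLXNA2, at 9.06 and 8.79-fold. Its replicates differed the most of all 23 regions, with a coefficient of variation of 42.1% against a median of 21.1% over the family's regions and 19.5% over all shared regions. NRP1, the co-receptor of SEMA3A and of vascular endothelial growth factor, had 1 shared region 150.4 kb outside its span (chromosome 10, 33484927 to 33485225) at 8.90, 7.57 and 6.27-fold (7.58 ± 1.31). Inside NRP1 only regions of 1 or 2 replicates were found.

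PLXNA2, a receptor of SEMA6A and, with neuropilins, of class 3 ligands, had 11 regions, the most of any member, of which 2 were shared. One was inside the gene (chromosome 1, 208107593 to 208107803) at 9.79, 9.06 and 8.10-fold (8.98 ± 0.85, SD, n = 3). The other was 309.4 kb from it (208553446 to 208553839) at 6.09, 8.79 and 7.28-fold (7.39 ± 1.35). PLXNA4, which shares ligands with PLXNA2, had 2 regions of 2 replicates, both inside its span. One (chromosome 7, 132398453 to 132398926) was 15.6-fold in replicate 1 and 11.8-fold in replicate 3 with no peak in replicate 2, and the other (132548145 to 132548380) was 9.19-fold in replicate 2 and 7.54-fold in replicate 3 with none in replicate 1. Counting genes with a region of 2 or 3 replicates gave 13 members, against 20.1% of all protein-coding genes, with PLXNA4 the gene added. PLXNC1 had 2 regions, both of replicate 3.

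**Figure D4:**
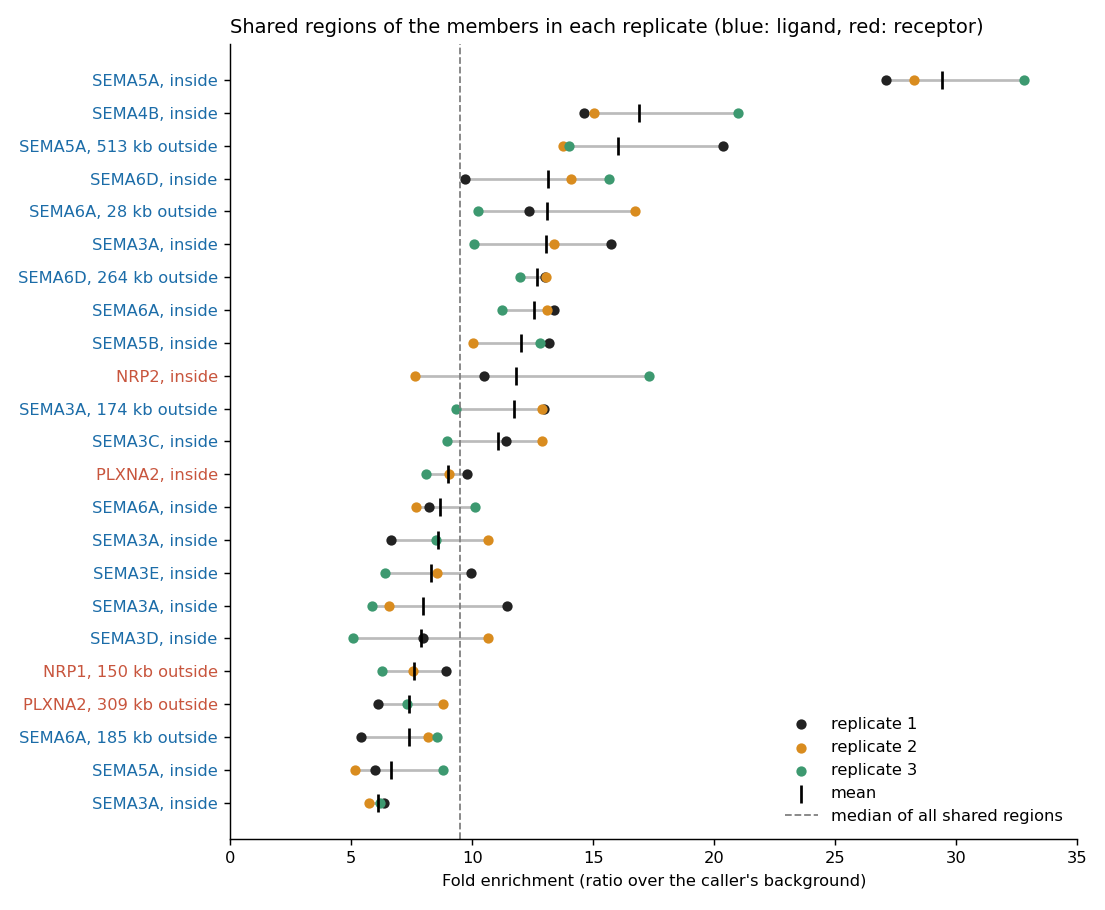
Fold enrichment of the 23 shared regions in each replicate (dots), with the mean (tick) and the range (grey line), ordered by mean and named by gene and place. The dashed line is the median over all 3537 shared regions, 9.49. The SEMA5A region at 29.4-fold stands apart from the others, which have means of 6.08 to 16.9, and 12 of the 23 means are above the line.

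Ligands and receptors were compared by the share of genes with a shared region, by density, by strength and by distance. Shared regions were found at 9 of 20 ligands and 3 of 11 receptors, beside 12.3% of all protein-coding genes. Under 100 kb of territory they were found at 1 of 10 ligands and 0 of 5 receptors (3.95% of all such genes). At 100 to 500 kb they were found at 2 of 4 and 1 of 3 (22.6%). At 500 kb and over they were found at 6 of 6 and 2 of 3 (56.5%). Per Mb of territory the ligands had 2.66 shared regions and the receptors 1.20, with 1.17 over all genes. Regions of any kind were 6.99 per Mb at ligands and 7.22 at receptors, with 5.20 over all genes. The order of the 2 roles was not the same in every replicate: peaks per Mb were 4.47, 4.19 and 4.19 at ligands and 2.71, 2.71 and 5.72 at receptors in replicates 1, 2 and 3. Over all genes they were 3.26, 2.47 and 3.01, so receptors were below the series in replicate 1 and above it in replicates 2 and 3. Receptor genes had 9, 9 and 19 peaks in the 3 lists, and replicate 3 gave 10 of their 15 regions of 1 replicate. When each region was given to the nearest of all annotated genes, noncoding ones included, 9 ligands had a shared region, and so did 1 receptor (NRP2), or 2 receptors with PLXNA2. The inner region of PLXNA2 lies in both that gene and the noncoding LOC105372887, whose end is nearer. LOC105372887 took it unless such ties went to the protein-coding gene. With this region included, 8 of the 23 shared regions went to noncoding genes. The same share over the whole series is not given here, where 51.3% of shared regions lay inside a protein-coding span. Among the 8 were all 5 ligand regions outside the spans, at SEMA5A, SEMA6A, SEMA6D and SEMA3A. The 16.0-fold SEMA5A region lay 3.55 kb from LOC105374647, and the highest SEMA6A region lay inside SEMA6A-AS2. The ligand density above counts these 5 regions.

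Over the strongest shared region of each gene, median fold enrichment at the 9 ligands was 12.3, 13.4 and 10.2 and at the 3 receptors 9.79, 7.63 and 8.10. The ligands' median was higher in all 3 replicates, by 0.49 ± 0.27 on the log2 scale (SD, n = 3; exact two-sided sign-flip permutation test, p = 0.25, 0.5 after Benjamini-Hochberg adjustment over 2 comparisons). With 3 replicates 0.25 is the smallest p this test can give, so no difference could be called. The SD and p are over replicates of the same genes and do not measure the spread among genes. The strongest regions were picked from 19 at ligands and 4 at receptors, and over all of these the difference was 0.44 ± 0.19. Fold values of single genes overlapped in each replicate, and in replicate 3 NRP2 exceeded 7 of the 9 ligands. With the nearest of all annotated genes the difference was 0.16 ± 0.72 on 1 receptor, or 0.32 ± 0.37 on 2 with ties to the protein-coding gene, and with regions within 100 kb only it was 0.25 ± 0.45 on 2 receptors.

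**Figure D5:**
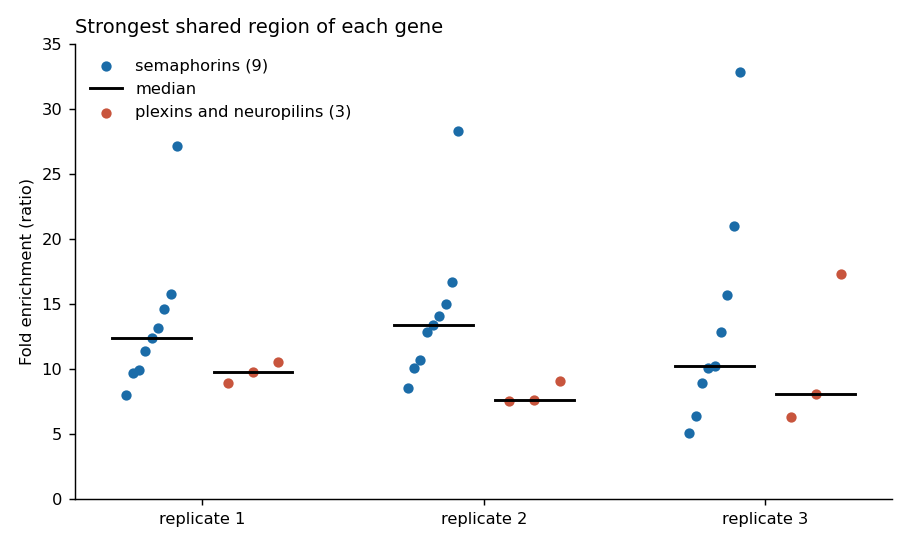
Fold enrichment of the strongest shared region of each of 9 semaphorins (blue) and 3 receptors (red) in replicates 1 to 3, with the median of each set (black bar). The ligand median is the higher in every replicate, while single genes of both sets overlap.

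By class, the mean over replicates of the median fold enrichment at each gene's strongest region was 20.7 ± 1.9 for the 2 class 5 genes, 13.1 ± 2.2 for the 2 class 6 genes and 10.0 ± 2.1 for the 4 class 3 genes (SD, n = 3). Class 4 was represented by SEMA4B alone. In class 3, 4 of 7 genes had a shared region, and in class 4, 1 of 6. In class 5 it was 2 of 2 and in class 6, 2 of 4, beside 12.3% of all protein-coding genes. Median territories of classes 3, 4, 5 and 6 were 539, 64, 635 and 243.5 kb, against 55 kb over all genes. Of the class 5 pair, SEMA5B alone had a mean of 12.0-fold, below the means of both class 6 genes. In the single replicates the class 6 medians were 11.0, 15.4 and 12.9 and those of class 3 were 10.7, 11.8 and 7.66, higher for class 6 in each, and no test of the classes was made.

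The strength of the family's shared regions was set against that of all others. The smallest p this test can give with 3 replicates is 0.25, so no difference could be called. The median over the 23 was 10.5, 10.7 and 9.31-fold in replicates 1, 2 and 3, against 9.62, 9.23 and 9.45 over the other 3514. The difference was 0.10 ± 0.12 on the log2 scale (SD, n = 3; positive in 2 of 3 replicates; exact two-sided sign-flip permutation test, p = 0.5, adjusted p = 0.5). In rank, 8 of the 23 were among the strongest 25% of all shared regions, 3 of them among the strongest 10%, and 5 among the weakest 25%. Summits of the replicates lay within a median of 26 bp of each other (30 bp over all shared regions), and the widest gap, 327 bp, was in a SEMA3A region.

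Of the 23 shared regions, 16 lay inside the member's span (69.6%, 95% Wilson interval 49.1 to 84.4%), beside 51.3% of all shared regions. At least 1 such region was found in 11 of the 31 genes, against 6.94% of protein-coding genes, and 11 had one within 100 kb, against 10.7%. Of the 7 regions outside, 6 were more than 100 kb from the gene, so the nearest span is there a label of position only. Counting those inside, 17 of the 23 lay within 100 kb of the span, beside 79.4% of all shared regions. Ligands had 14 regions inside and 5 outside, at 27.7 to 513.4 kb, and receptors 2 inside and 2 outside, at 150.4 and 309.4 kb. Median mean fold enrichment was 10.0 inside and 11.7 outside. Of the 13 shared regions at genes with a tabulated start, 1 (SEMA4B) lay within 5 kb of a start and 11 were more than 10 kb away. The same shares over the whole series are not given here. The gene table gives no exons, so exons and introns were not separated.

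Genes that act with semaphorin receptors were read from a list of 50 co-receptors, GTPases, their regulators, kinases and cytoskeletal effectors, of which 8 had a shared region (16%, beside 12.3% of all protein-coding genes). Territories of the 50 genes had a median of 126.5 kb, against 55 kb over all protein-coding genes. Of all genes with a territory of 100 to 500 kb, 22.6% had a shared region. TIAM1, an exchange factor for Rac, had 2, the stronger inside the gene (chromosome 21, 31555823 to 31556256) at 24.5, 19.6 and 18.8-fold (21.0 ± 3.1, SD, n = 3). MICAL2 and MICAL1, enzymes that oxidise actin downstream of plexins, had regions of 18.2 ± 4.7 and 13.6 ± 1.1-fold inside their spans. FYN, a Src-family kinase (11.1 ± 1.8), and DPYSL3, a collapsin response mediator gene (8.17 ± 1.28), were also bound inside. The small GTPase and adaptor genes of the list, 6 and 4 in number, had 0 shared regions. Their median territories were 43.5 and 33 kb, and 3.95% of all genes under 100 kb had a shared region, so 0 is uninformative here.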

How the data were processed

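Per the submitters' processing notes, Trim Galore, Bowtie2, SAMtools, MACS3 and deepTools were used and the build was hg38, with versions, settings and control not given in the sources used here. Each replicate has its own narrow-peak list deposited by the authors, with fold enrichment as a linear ratio and significance as −log10 p and −log10 q (at least 3.0 in each list). The deposited score, which is the −log10 q multiplied and truncated, and the summit offset came with them, and the score was not used. The labels number the replicates without saying whether they are separate cultures, so their spread may be partly technical.

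Lines of an interval were reduced to the summit of highest ratio, giving 9859, 7471 and 9122 peaks on chromosomes 1 to 22 and X. Peaks overlapping by 1 bp were merged (15743 regions, 3537 shared), and a region's position was the median summit. Genes came from a RefSeq table (GRCh38.p14, the build of hg38) in Python 3.11.15 with pandas 2.3.3 and SciPy 1.17.1. A territory was probed every 1 kb, assembly gaps included. The steps recovered all sites planted in simulated data. All 31 members were named with their regions, and from the partner list the 6 genes with the strongest shared region, of which 1 is not reported here. Members and lists were chosen with earlier results of these data known.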

Additional observations from a re-analysis of the deposited data

How the results depend on the processing

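The 6 results (counts of all members, ligands and receptors with a shared region, the ligand and receptor difference, the difference from other regions, and the share inside genes) were recomputed under 61 combinations of result and alternative, of which 57 kept their direction, or their size within 1.5 times for counts and within the 95% interval for the share. The count of members ranged from 9 to 13. With peaks of −log10 q of at least 10 it was 9, without NRP1, SEMA3D and SEMA3E. With the nearest of all annotated genes, 1 receptor had a shared region, and 100% of the 15 regions left were inside the member. The NRP1 region, the outer PLXNA2 region and the 5 ligand regions outside spans lie nearer to noncoding genes. The inner PLXNA2 region lies inside both PLXNA2 and a noncoding gene. With such ties given to the protein-coding gene, an alternative chosen after seeing the data, 2 receptors had one and 100% of 16 regions were inside. With regions within 100 kb only, 94.1% of 17 were inside, through the construction of that limit. Leaving out replicate 1 or replicate 2 added PLXNA4, and leaving out replicate 3 changed no member. The ligand and receptor difference stayed positive, between 0.16 and 0.59 on the log2 scale, and was 0.29 without replicate 2. The difference of members from other regions moved between 0.08 and 0.22 on the log2 scale. No paired analysis was possible because the lists form 1 group and the input libraries that share its replicate numbers have no values here. Without read counts, depth cannot be weighed for any region.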

Other observations

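Some regions of the family were strong in 1 list and missing from the others. Of the 42 regions of 1 replicate, 4 exceeded the median of all shared regions, which is a median of means over 3 replicates. The same count over the series is not given here. The median of the 42 was 6.24-fold, beside 6.21 over all regions of 1 replicate, so such regions are not particular to the family in strength. A region 10.7 kb upstream of the start of PLXNA2 (chromosome 1, 208254907 to 208255149) reached 14.6-fold with −log10 q of 26.2 in replicate 3 and had no peak in replicates 1 and 2. This is higher than either shared region of PLXNA2 in any replicate. A region 510.0 kb from SEMA6D reached 11.2-fold in replicate 3, one inside SEMA3D 10.9-fold in replicate 2, and one 15.2 kb from SEMA6B 9.61-fold in replicate 3. Inside PLXNA4, the region missing from replicate 2 had −log10 q of 30.6 in replicate 1 and 18.4 in replicate 3. Signal at these positions in the lists without a peak was not analysed here.

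SEMA3D and SEMA5A differed in how their regions recurred. They have territories of 1203 and 1118 kb. SEMA3D had 9 regions, of which 1 was shared, and SEMA5A had 3, all shared. These are counts of 1 gene each, and the difference was not tested.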
